A study of Homo sapiens with 6 samples.

Results

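The matrix metalloproteinases (MMP), the ADAM and ADAMTS proteases and the tissue inhibitors of metalloproteinases (TIMP) were compared between IL17D-overexpressing and control A549 cells. Members were all rows of the gene count table that were annotated as protein coding and whose symbol was MMP and a number (with or without a final B), ADAM and a number, ADAMTS and a number, or TIMP1 to TIMP4. This rule found 66 of the 58735 genes, namely 23 MMP, 20 ADAM, 19 ADAMTS and 4 TIMP genes. A549 is a human lung adenocarcinoma cell line. RNA-seq was performed on 3 libraries of A549 cells overexpressing IL17D and 3 libraries of A549 cells with the empty vector (control), both grown in RPMI medium with serum. In the lentiviral vector a human PGK promoter drives the IL17D open reading frame, amplified from cDNA of another lung cancer line, and GFP. The sources used here do not state whether the transduced cells were a clone or a pool, or whether the libraries of a group came from separate cultures, so p-values measure only the spread between these libraries.

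Matrix metalloproteinases are zinc-dependent endopeptidases, made as inactive proenzymes, that cleave components of the extracellular matrix and many other proteins outside the cell. ADAM proteases sit in the membrane and release the extracellular part of growth factors, cytokines, adhesion molecules and receptors, a step called shedding, while several family members lack a working catalytic site. ADAMTS proteases are secreted and act on proteoglycans, procollagens and von Willebrand factor, and TIMP proteins bind and inhibit many of these enzymes. In carcinoma cells these families are known for matrix turnover, invasion and the release of ligands for growth factor receptors.

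The overexpressed gene itself separated the groups: control replicates 1, 2 and 3 held 24, 18 and 34 IL17D counts, against 31274, 32155 and 26772 in the IL17D-overexpressing replicates. Total counts per library lay between 14319398 and 16521021. Libraries of a group differed by more than counting error (2.16 to 3.18 for the chi-square statistic divided by its degrees of freedom), and none was a copy of another. Of the epithelial markers, the keratin genes KRT7, KRT8 and KRT18 were high, with 7201 to 7779 CPM (counts scaled to library size with TMM factors) for KRT8. The keratin gene KRT19 had 3 to 11 counts in a library, and EPCAM reached at most 1.31 CPM. Most markers of other cell types were at or near 0, with no count for PTPRC, CD163 and AIF1 of macrophages and for KDR and TEK of endothelial cells. The filter on low counts was passed by 1 of the 7 macrophage markers. Of the 7 fibroblast markers only COL1A1 passed it, with 19.2 to 24.2 CPM. The 66 members held 0.167% to 0.181% of all counts.

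The members ranged from among the well-expressed genes of A549 cells to genes with no count. The filter of edgeR on low counts kept 33 of the 66 members for testing, namely 9 of 23 MMP, 11 of 20 ADAM, 10 of 19 ADAMTS and 3 of 4 TIMP genes. Of the other 33, no count was found in any library for ADAM2, ADAM7, ADAM18, ADAM30, ADAMTS19, ADAMTS20, MMP12, MMP26 and MMP27. Where a library shows 0 counts, counting error alone leaves room for as many as 3, which corresponds to 0.182 to 0.210 CPM depending on the library. The remaining 24 members had a few counts each, and MMP10 had the most, with 35 counts over the 6 libraries.

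Levels between genes were compared as RPKM, here the CPM divided by the gene's length in kilobases as the authors list it. ADAM9 had the highest level of all members, with a mean of 89.9 ± 5.68 RPKM (SD over 6 libraries), and took 34.2% to 37.1% of all counts on members. ADAM9 is a membrane-bound sheddase. TIMP1 followed with 55.6 ± 2.55 RPKM and TIMP2 with 37.2 ± 1.23 RPKM. These secreted inhibitors act on most MMPs, and TIMP2 also takes part in the activation of pro-MMP2 at the cell surface. Next came MMP24 (21.4 ± 0.900 RPKM), ADAM15 (18.2 ± 1.66 RPKM), ADAM10 (15.6 ± 0.359 RPKM), MMP15 (11.8 ± 0.680 RPKM), MMP7 (10.5 ± 1.31 RPKM), ADAM17 (7.74 ± 0.145 RPKM) and ADAM23 (4.97 ± 0.373 RPKM). Of the neighbours in this order, the ranges over the 6 libraries overlapped for MMP15 (10.7 to 12.8 RPKM) and MMP7 (8.88 to 12.1 RPKM). Those of MMP24 and ADAM15 touched at 19.9 RPKM, and the other neighbours were apart. This order depends on the listed length, which merges all exons of a gene and was 16168 bases for ADAM10 and 1541 for TIMP1. By counts over the 6 libraries, ADAM10 (23698) stood above TIMP2 (19709), ADAM15 (11272), MMP24 (8900) and TIMP1 (8060). The membrane-type enzymes MMP24 and MMP15 and the matrilysin MMP7 were thus the MMP genes with the highest levels. No ADAMTS gene reached the RPKM of ADAM23, although ADAMTS9 had 3144 counts against 2994 on ADAM23. The plot of levels by library shows the 33 tested members.

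**Figure D1:**
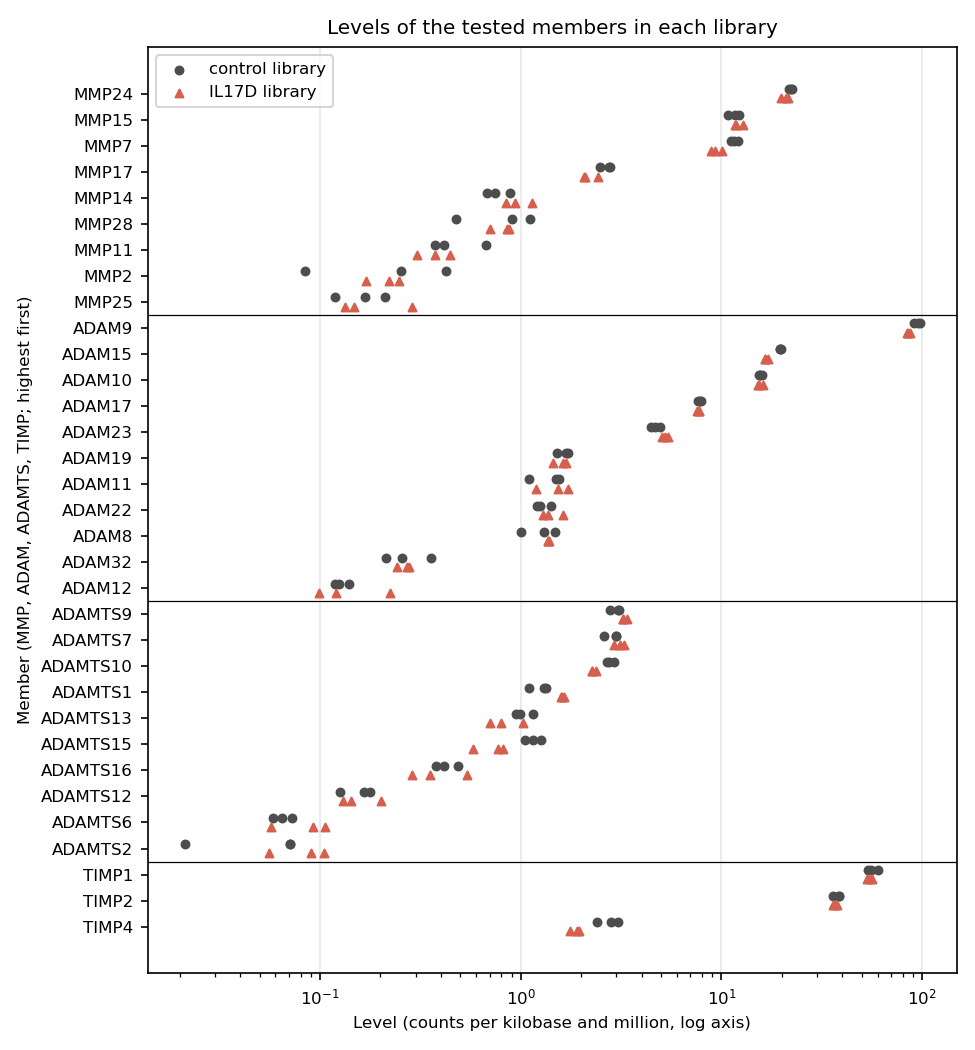
Level of each tested member (RPKM, log axis) in each of the 3 control libraries (circles) and 3 IL17D-overexpressing libraries (triangles), grouped by family and ordered by mean level. ADAM9 is highest with a mean of 89.9 RPKM, and libraries of the groups lie close together for most members.

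The MMP genes most often linked to tumor invasion were low or near 0 in both groups. MMP2, a gelatinase that cleaves basement membrane collagen, had 34, 6 and 20 counts in control and 20, 18 and 12 with IL17D. MMP9, the other gelatinase, had 3, 2 and 4 counts in control and 0, 6 and 0 with IL17D. MMP1, an interstitial collagenase, had 1, 0 and 0 counts in the control libraries and 0, 6 and 0 in the others. At these counts a difference between the groups was not detectable. MMP14, the membrane-type enzyme that activates pro-MMP2, was measured at 3.94, 3.32 and 3.05 CPM in the control libraries and 3.77, 5.11 and 4.20 CPM in the IL17D-overexpressing libraries. The groups overlapped, and its log2 fold change was 0.34 (95% confidence interval -0.071 to 0.76, adjusted p = 0.561).

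MMP7 lies at one end of a cluster of 9 MMP genes on chromosome 11 (GRCh38, 102520508 to 102955734, a span of 435.2 kb). MMP7 had 2287 counts over the 6 libraries, and the 8 other genes of the cluster (MMP20, MMP27, MMP8, MMP10, MMP1, MMP3, MMP12 and MMP13) had 50 together, 35 of them on MMP10. The MMP7 promoter is shown because this gene alone of the cluster passed the filter and because its window holds an AP-1 element. AP-1 is a dimer of FOS and JUN family proteins, and AP-1 elements are a known feature of inducible MMP promoters. The window is chr11:102530698-102530997 on the minus strand (RefSeq, GRCh38.p14), from 250 bases before to 50 bases after the start of transcription, and the capitals mark the AP-1 element TGAGTCA. The ADAM15 promoter (chr1:155051066-155051365, plus strand, same source) is shown beside it as that of a well-expressed member that fell. This ADAM15 window holds no copy of the element. It lies inside the listed gene, which starts at 155050566, and the sequence before that start was not searched.
MMP7: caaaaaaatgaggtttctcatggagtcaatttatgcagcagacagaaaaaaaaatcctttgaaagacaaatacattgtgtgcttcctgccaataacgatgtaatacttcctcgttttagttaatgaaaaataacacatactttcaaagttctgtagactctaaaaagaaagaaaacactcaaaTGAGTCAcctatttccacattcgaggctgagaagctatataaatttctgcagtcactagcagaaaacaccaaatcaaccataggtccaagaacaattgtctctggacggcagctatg
ADAM15: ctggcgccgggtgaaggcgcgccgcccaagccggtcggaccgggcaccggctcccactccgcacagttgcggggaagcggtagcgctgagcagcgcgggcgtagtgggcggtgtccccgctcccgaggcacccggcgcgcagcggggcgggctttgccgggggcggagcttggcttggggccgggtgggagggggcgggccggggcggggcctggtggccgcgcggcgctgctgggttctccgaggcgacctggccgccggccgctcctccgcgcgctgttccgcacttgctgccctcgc

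Windows of this kind were found for 39 of the 66 members, with none for ADAM9 and ADAMTS15. The element was searched on both strands, which read TGAGTCA and TGACTCA. It was found in 1 of the 39 windows (2.56%), that of MMP7, where its first base lies at position -67 from the start of transcription, and in 3.69% of the 14896 windows of protein-coding genes. The MMP7 window has 35.7% G and C bases and 4 CpG dinucleotides, and the ADAM15 window 79.3% and 44. Over the 21 windows of tested members the median was 74% G and C, and over the 18 windows of members that were not tested it was 57.3%, against 63% for the windows of all protein-coding genes. These are descriptions of the sequence and were not tested.

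The comparison of IL17D-overexpressing with control cells called 3 of the 33 tested members (9.09%) at an adjusted p under 0.05, and all 3 were lower in IL17D-overexpressing cells. These were ADAM9, ADAM15 and ADAMTS15. Calls were made with the quasi-likelihood test of edgeR, adjusted by the Benjamini-Hochberg method over 15754 genes, which called 1.58% of all tested genes, with 0.908% lower and 0.673% higher. The number of called members was 1 without IL17D replicate 1 and 2 or 3 without any other single library. Of the 33 members, 14 had a log2 fold change above 0 and 19 below 0, with a median of -0.031 against -0.00044 over all tested genes. Members are not replicates, and the share called and this median are descriptions. The plot of changes gives each member with its interval.

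**Figure D2:**
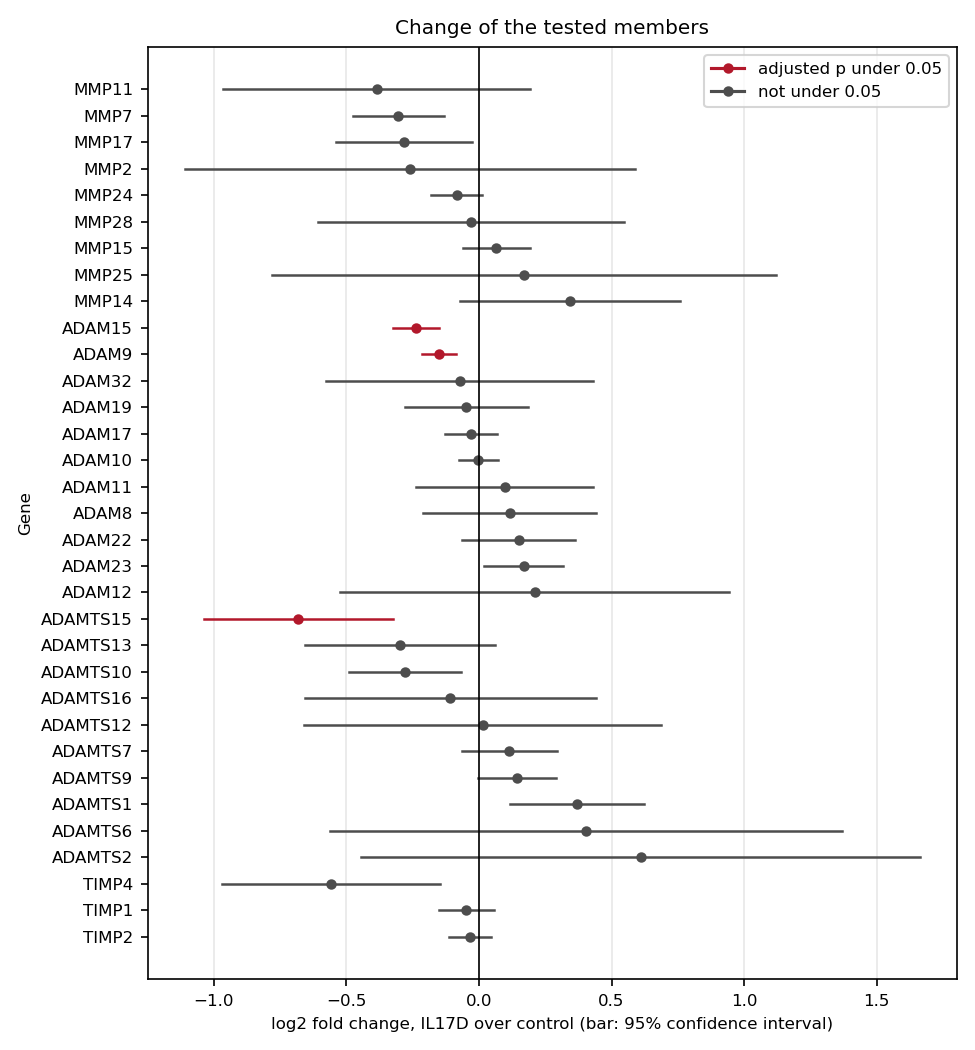
Log2 fold change of each of the 33 tested members in IL17D-overexpressing over control cells, with 95% confidence intervals as bars, grouped by family. ADAM15, ADAM9 and ADAMTS15 (red) had an adjusted p under 0.05, and their intervals lie below 0.

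Among the ADAM genes, the sheddases ADAM9 and ADAM15 fell, whereas the intervals of ADAM10 and ADAM17 were narrow around 0. ADAM15 (ENSG00000143537, chromosome 1, 155050566 to 155062775), a membrane protease with an integrin-binding disintegrin domain, was at 131, 129 and 129 CPM in control replicates 1, 2 and 3 and at 112, 109 and 109 CPM in the IL17D-overexpressing replicates. The 3 IL17D-overexpressing libraries lay below all 3 control libraries, and bulk RNA-seq does not tell less RNA per cell from fewer cells that express a gene. Its mean went from 130 ± 1.05 to 110 ± 1.87 CPM (SD, n = 3 each), or -0.24 ± 0.043 on the log2 scale (fold change ± standard error, adjusted p = 0.000815 by edgeR), and the call held under the 12 alternatives, with adjusted p-values from 7.76e-05 to 0.0137. Of its exon bases, 4.65% overlap DCST1 on the same strand, a gene with 165 counts against 11272 on ADAM15.

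ADAM9 (ENSG00000168615, chromosome 8, 38996869 to 39105144) was at 627, 657 and 676 CPM in the control replicates and at 580, 585 and 603 CPM in the IL17D-overexpressing replicates, again without overlap. Its mean went from 654 ± 24.6 to 589 ± 11.9 CPM (SD, n = 3 each), or -0.15 ± 0.032 on the log2 scale (fold change ± standard error, adjusted p = 0.00601 by edgeR). ADAM9 thus fell by 9.86%, with a 95% confidence interval of -13.8% to -5.72%. Without IL17D replicate 1 its adjusted p was 0.0744 in edgeR's test. ADAM9 held most of the family's level, and the summed level of the 20 ADAM genes was 149 ± 3.78 RPKM in control and 137 ± 2.15 RPKM in IL17D-overexpressing libraries (SD, n = 3 each).

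ADAM10 and ADAM17 are the main sheddases of NOTCH receptors, EGF receptor ligands and TNF. ADAM10 (ENSG00000137845, chromosome 15, 58588807 to 58749978) was at 252, 249 and 256 CPM in the control replicates and 245, 261 and 249 CPM in the IL17D-overexpressing replicates. ADAM17 (ENSG00000151694, chromosome 2, 9488486 to 9556732) was at 82.6, 85.5 and 84.2 CPM in control and 80.9, 83.1 and 82.8 CPM in IL17D-overexpressing replicates. The groups overlapped for both genes. The log2 fold change of ADAM10 was -0.0023 (95% confidence interval -0.076 to 0.072, adjusted p = 0.992), and that of ADAM17 was -0.031 (95% confidence interval -0.13 to 0.067, adjusted p = 0.878). A fall as large as that measured for ADAM15 lies outside both intervals. Of the ADAM17 exon bases, 12.3% overlap IAH1 on the opposite strand, and the strand setting of the counting is not stated. Whether the changes of ADAM9 and ADAM15 differ from those of ADAM10 and ADAM17 was not tested.

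Among the ADAM genes whose proteins lack a working catalytic site, ADAM23 was the best expressed, and it is known as a receptor-like protein of neurons. ADAM23 was at 28.6, 31.8 and 29.8 CPM in control and 32.6, 33.8 and 35.0 CPM in IL17D-overexpressing replicates. The groups did not overlap, but the gene did not pass the test (log2 fold change 0.17, standard error 0.074, adjusted p = 0.362). ADAM11, ADAM22 and ADAM32 had log2 fold changes of 0.097, 0.15 and -0.073, and the groups overlapped for each.

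**Figure D3:**
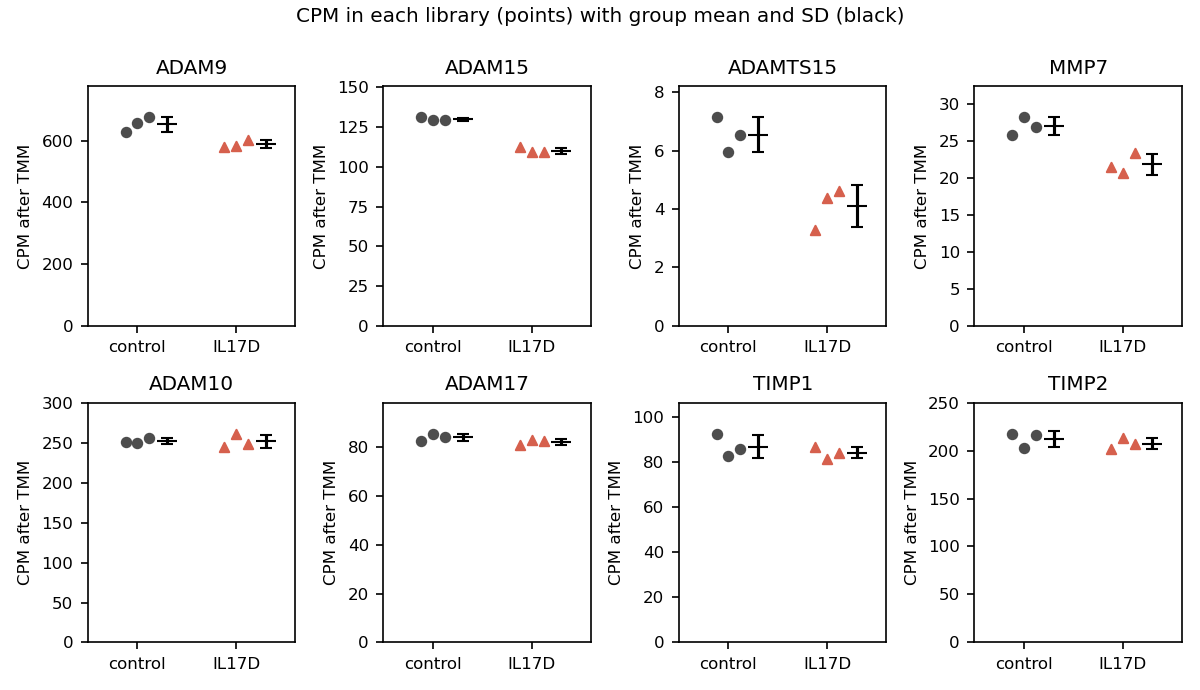
CPM after TMM scaling in each control (circles) and IL17D-overexpressing library (triangles) for 8 members, with the mean and SD of 3 libraries in black and axes from 0. ADAM9, ADAM15, ADAMTS15 and MMP7 lie lower in the IL17D-overexpressing libraries without overlap, whereas ADAM10, ADAM17, TIMP1 and TIMP2 overlap.

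Of the ADAMTS genes, ADAMTS15 fell and the other 9 tested genes did not pass the test. ADAMTS15 (ENSG00000166106, chromosome 11, 130448974 to 130476641), which cleaves aggrecan and versican, was covered by 116, 86 and 105 counts in control replicates 1, 2 and 3, against 54, 72 and 66 with IL17D. This was 7.14, 5.95 and 6.53 CPM against 3.28, 4.38 and 4.63 CPM, with no overlap. Its log2 fold change (-0.68 ± 0.18 standard error, adjusted p = 0.0335 by edgeR) was the largest fall among the tested members. The call rested on single libraries and on the tool. In edgeR's test its adjusted p was 0.166 without control replicate 1, 0.0626 without control replicate 3, and 0.236, 0.0596 and 0.0523 without IL17D replicate 1, 2 and 3, and DESeq2's Wald test gave an adjusted p of 0.0835.

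ADAMTS1, a proteoglycanase that is also known as an angiogenesis inhibitor, was at 9.23, 7.74 and 9.39 CPM in control and 11.2, 11.6 and 11.3 CPM in IL17D-overexpressing replicates. All 3 IL17D-overexpressing libraries were above the control libraries, but the gene did not pass the test over all genes (log2 fold change 0.37, standard error 0.12, adjusted p = 0.158). ADAMTS10, which binds fibrillin microfibrils, was at 16.7, 15.3 and 15.7 CPM in control and 13.5, 12.9 and 12.9 CPM in IL17D-overexpressing replicates (log2 fold change -0.28, standard error 0.10, adjusted p = 0.236). The proteoglycanase ADAMTS9, at 3.14 ± 0.205 RPKM (SD over 6 libraries), was not called either (log2 fold change 0.14, adjusted p = 0.46). ADAMTS7, at 2.98 ± 0.229 RPKM (SD over 6 libraries), overlapped ADAMTS9 in level. It had a log2 fold change of 0.11, and 26.6% of the 31-base stretches of its transcripts also occur in other genes, mostly its pseudogene ADAMTS7P1, so its counts are uncertain. The control and IL17D-overexpressing libraries did not overlap for ADAMTS9 and did for ADAMTS7. ADAMTS proteoglycanases with close neighbours on the chromosome differed in level, with 499 counts over the 6 libraries for ADAMTS15 and 5 for ADAMTS8, and 950 for ADAMTS1 and 1 for ADAMTS5.

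No MMP gene passed the test at an adjusted p under 0.05. MMP7 (ENSG00000137673, chromosome 11, 102520508 to 102530753), a small secreted protease of epithelial cells that cleaves matrix proteins, E-cadherin and membrane-bound ligands, was closest to it. It was at 25.8, 28.2 and 26.9 CPM in control replicates 1, 2 and 3 and at 21.5, 20.6 and 23.4 CPM in the IL17D-overexpressing replicates. The groups did not overlap, and the means were 27.0 ± 1.21 and 21.8 ± 1.42 CPM (SD, n = 3 each), or -0.31 ± 0.084 on the log2 scale (fold change ± standard error, adjusted p = 0.0581 by edgeR). Its adjusted p stayed between 0.0524 and 0.239 under the 12 alternatives. The counts do not show whether its AP-1 element is bound.

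The membrane-type MMP24 was at 95.5, 97.7 and 99.1 CPM in control and 94.8, 92.9 and 87.9 CPM in IL17D-overexpressing replicates (log2 fold change -0.084, 95% confidence interval -0.18 to 0.012, adjusted p = 0.528). Of its exon bases, 18.1% overlap MMP24OS on the opposite strand, which had 2961 counts against 8900 on MMP24. MMP17, another membrane-type enzyme, ranged from 9.89 to 11.2 CPM in control and from 8.27 to 9.73 CPM in IL17D-overexpressing libraries (log2 fold change -0.28, adjusted p = 0.371). In both genes the groups did not overlap. MMP15, which like MMP14 cleaves matrix at the cell surface, overlapped between the groups, with 47.4 to 54.2 CPM in control and 51.5 to 56.4 CPM in IL17D-overexpressing libraries.

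None of the inhibitors passed the test. TIMP1 (ENSG00000102265, chromosome X, 47582313 to 47586789) was at 92.7, 82.7 and 85.8 CPM in control and 86.9, 81.7 and 84.4 CPM in IL17D-overexpressing replicates. TIMP2 (ENSG00000035862, chromosome 17, 78852977 to 78925387) was at 217, 202 and 216 CPM in control and 202, 213 and 206 CPM in IL17D-overexpressing replicates. Both overlapped between the groups, with log2 fold changes of -0.047 (95% confidence interval -0.15 to 0.056, adjusted p = 0.803) and -0.034 (95% confidence interval -0.11 to 0.045, adjusted p = 0.819). TIMP4 was at 5.05, 3.94 and 4.66 CPM in control and 3.22, 2.92 and 3.15 CPM in IL17D-overexpressing replicates. All 3 values were below the control values, but the test over all genes was not passed (log2 fold change -0.56, standard error 0.20, adjusted p = 0.215). TIMP3, which binds the matrix and inhibits ADAM17, had 7, 3 and 2 counts in control and 5, 3 and 5 with IL17D. TIMP1, TIMP3 and TIMP4 lie inside the synapsin genes SYN1, SYN3 and SYN2 on the opposite strand. Of these, TIMP4 shares 10.3% of its exon bases with SYN2, which had 63 counts against 360 on TIMP4, and the others share none.

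A looser rule, an unadjusted p under 0.05 with a log2 fold change above 0.2 in size, took in 7 of the 33 tested members (21.2%), against 6% of all tested genes. ADAM15, ADAMTS15, MMP7, ADAMTS10, MMP17 and TIMP4 were lower and ADAMTS1 was higher in IL17D-overexpressing cells, where 3.43% of all tested genes were lower and 2.57% higher by this rule. ADAM9 was not among them because its change is small, and it was called by its adjusted p. For 11 of the 33 members (33.3%) the ranges of the groups did not overlap, against 15.8% of all tested genes. The IL17D-overexpressing libraries were lower for 8 of them and higher for 3, against 8.31% and 7.48% of all tested genes. These shares are descriptions, and whether they differ from those of all tested genes was not tested.

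Of 17 genes that control ADAM proteases, all tested, 1 rose and 1 fell at an adjusted p under 0.05 and 15 were not called, where 0.673% of all tested genes were higher and 0.908% lower. TSPAN15 (ENSG00000099282, chromosome 10, 69451473 to 69507669), a tetraspanin that brings ADAM10 to the cell surface and steers it to substrates, was at 75.4, 78.1 and 70.4 CPM in control and 64.2, 63.8 and 59.6 CPM in IL17D-overexpressing replicates. Its log2 fold change was -0.25 (standard error 0.055, adjusted p = 0.00735 from edgeR's test), with an adjusted p of 0.0787 without control replicate 2 and 0.102 without IL17D replicate 3. FRMD8 (ENSG00000126391, chromosome 11, 65386599 to 65413525), which stabilizes the iRhom partners of ADAM17, was at 72.0, 76.1 and 68.6 CPM in control and 85.2, 81.3 and 84.8 CPM in IL17D-overexpressing replicates. Its log2 fold change was 0.21 (standard error 0.052, adjusted p = 0.0207), and edgeR gave an adjusted p of 0.068, 0.0965, 0.116 and 0.12 without control replicate 1, control replicate 3, IL17D replicate 1 and IL17D replicate 3. In neither gene did the groups overlap.

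The 5 other ADAM10-binding tetraspanins of the list had log2 fold changes from -0.036 (TSPAN17) to 0.22 (TSPAN10) and did not pass the test. TSPAN14, with the highest level of these 5 at 21.7 RPKM, was at 378, 395 and 383 CPM in control and 394, 397 and 387 CPM in IL17D-overexpressing replicates. The iRhom genes RHBDF1 and RHBDF2, which carry ADAM17 through the secretory pathway, had log2 fold changes of -0.072 and 0.040 with overlapping groups. FURIN, which removes the prodomain of many of these proteases, had a log2 fold change of -0.037 (95% confidence interval -0.13 to 0.058). The plot of these genes gives the whole list.

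**Figure D4:**
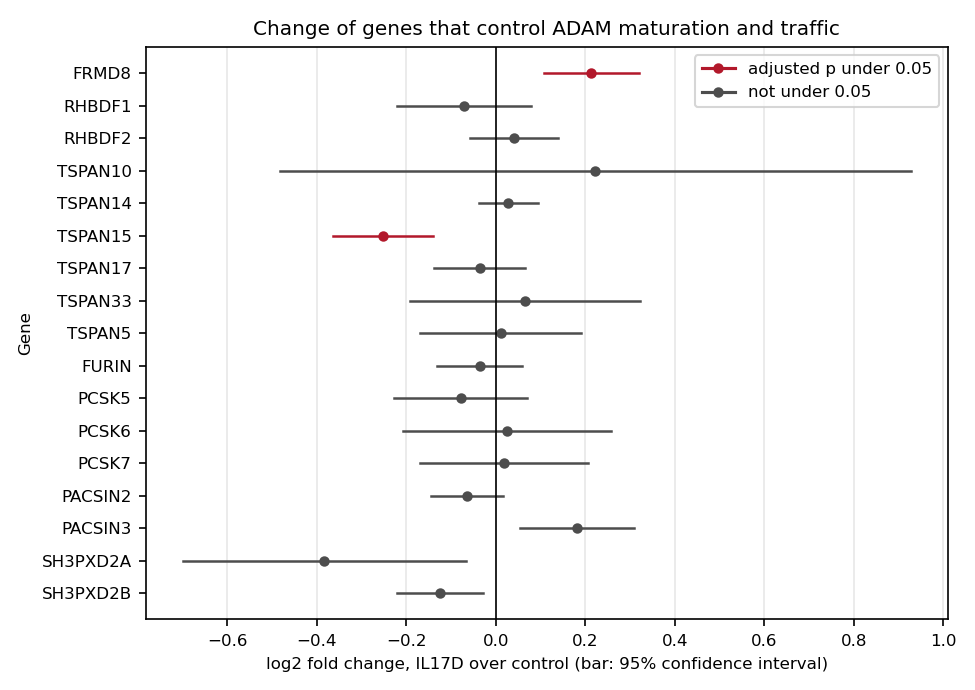
Log2 fold change in IL17D-overexpressing over control cells, with 95% confidence intervals as bars, for 17 genes that control the maturation, traffic or anchoring of ADAM proteases. TSPAN15 and FRMD8 (red) had an adjusted p under 0.05, one lower and one higher.

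Of 37 genes whose proteins are known substrates of shedding, 31 were tested and 1 passed the test, where 1.58% of all tested genes passed. CDH1 (ENSG00000039068, chromosome 16, 68737225 to 68835548), which encodes E-cadherin, was at 40.9, 43.1 and 46.2 CPM in control and 32.4, 35.6 and 39.0 CPM in IL17D-overexpressing replicates, with no overlap. Its log2 fold change was -0.28 (standard error 0.072, adjusted p = 0.0306 from edgeR's test). The adjusted p was 0.0659 with DESeq2's Wald test, and in edgeR's test it was 0.0765 and 0.135 without control replicates 2 and 3 and 0.269 and 0.0806 without IL17D replicates 1 and 2. Of the EGF receptor ligands released by ADAM17 or ADAM10, AREG and EREG were well expressed, with 157 to 167 CPM for AREG and 315 to 350 CPM for EREG over the 6 libraries, and overlapped between the groups. HBEGF was at 3.63, 3.59 and 3.92 CPM in control and 5.84, 6.14 and 4.41 CPM in IL17D-overexpressing replicates, without overlap, and did not pass the test (log2 fold change 0.56, standard error 0.19, adjusted p = 0.149). TNFRSF1A went from 413, 417 and 404 to 386, 378 and 377 CPM, also without overlap or passing edgeR's test (log2 fold change -0.11, adjusted p = 0.0728). The groups did not overlap for 10 of the 31 tested substrates (32.3%), against 15.8% of all tested genes. With IL17D, 4 of these were higher and 6 lower, where 7.48% and 8.31% of all tested genes were. These shares were not tested.

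In a list of 24 genes around MMP activation and inhibition, 14 were tested and 1 passed, where 1.58% of all tested genes passed. This was TFPI2, a secreted inhibitor of plasmin and other serine proteases, which was at 432, 431 and 434 CPM in control and 604, 603 and 624 CPM in IL17D-overexpressing replicates (log2 fold change 0.50, standard error 0.031, adjusted p = 7.36e-14). The urokinase receptor gene PLAUR was higher in the 3 IL17D-overexpressing libraries than in the 3 control libraries without passing the test (log2 fold change 0.20, adjusted p = 0.32). The membrane-anchored MMP inhibitor RECK had a log2 fold change of -0.016 with overlapping groups.

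In a list of 24 ADAMTS-like genes and ADAMTS substrates, 15 were tested and 1 passed. FBN2 (ENSG00000138829, chromosome 5, 128257909 to 128659185), which encodes fibrillin-2 of the microfibrils, was at 63.1, 71.9 and 69.0 CPM in control and 55.4, 55.3 and 52.8 CPM in IL17D-overexpressing replicates. The groups did not overlap, and the log2 fold change was -0.32 (standard error 0.058, adjusted p = 0.00108 from edgeR's test), a call that held under the 12 alternatives. VCAN, the gene of versican, which ADAMTS15 and ADAMTS1 cleave, was at 171, 187 and 198 CPM in control and 195, 199 and 192 CPM in IL17D-overexpressing replicates, with overlap. Over these lists and the list of other metalloproteinases, 5 of 81 tested genes (6.17%) were called, 2 higher and 3 lower, against 1.58% of all tested genes. All these lists were chosen with earlier results of these data known. The share is thus a description, and whether it differs from that of all genes was not tested.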

How the data were processed

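RNA-seq counts of 3 libraries of IL17D-overexpressing and 3 of control A549 cells were analysed. The authors deposited raw counts of reads per gene, with no normalization. The submitters' processing notes name Bowtie2 and hg38. The counting tool and its strand setting are not given in the sources used here. The listed coordinates of all 66 members are those of GENCODE release 29. Groups were taken from the sample titles.

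The software was edgeR 4.0.16, DESeq2 1.42.0 and limma 3.58.1 under R 4.3.3, and Python 3.11.15. Genes passing filterByExpr were scaled by TMM and compared with edgeR's quasi-likelihood test without covariates. P-values are two-sided and were adjusted by Benjamini-Hochberg over 15754 genes. Standard errors and 95% intervals come from that fit. RPKM used the merged exon length per gene, and sequences are from RefSeq. The edgeR, DESeq2 and limma voom tests were also run on simulated counts, with planted changes larger than those of ADAM9 and ADAM15. The sequence steps were not simulated.

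The members and lists were chosen with earlier results of these data known. Named members were those called at either threshold, the 10 with the highest RPKM, and MMP1, MMP2, MMP7, MMP9, MMP14, ADAM9, ADAM10, ADAM17, ADAMTS1 and TIMP1 to TIMP4. Called genes of the lists were also named. Any other gene named was chosen after its values were seen. Values of 1 gene on the lists are not reported here. ADAMTSL6 on 1 list is another name of THSD4 and was counted once. The alternatives were DESeq2 size factors, DESeq2, limma voom, other filters, a replicate block and leaving out each library.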

Additional observations from a re-analysis of the deposited data

How the results depend on the processing

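The number of members called at an adjusted p under 0.05 was 3 with DESeq2 size factors, limma voom, both other filters and the replicate block, and 2 with DESeq2's Wald test. Leaving out 1 library at a time gave 1 to 3, with 1 (ADAM15) without IL17D replicate 1. Members under the looser rule numbered 7, with 6 to 8 under the alternatives and 6 to 7 when 1 library was left out. Of the genes on the lists, 5 were called, and 3 to 5 when 1 library was left out, with 3 without control replicate 2, IL17D replicate 1 or IL17D replicate 3. The log2 fold change of IL17D lay between 10.05 and 10.44. All genes called numbered 249, and 145 and 155 without IL17D replicates 3 and 1. Same-numbered libraries did not deviate together (correlations of 0.010, -0.012 and -0.015), and with the replicate block no call of a named gene was lost. Log2 fold changes near 0 or of few counts turned direction, none of them called. These were ADAM10 with 0.0091, 0.018 and 0.0070 without control replicate 3, IL17D replicate 1 and IL17D replicate 3 (range -0.030 to 0.018 when 1 library was left out), and, without control replicate 1, TIMP1 with 0.0023 (range -0.082 to 0.0023) and MMP2 with 0.32 (range -0.66 to 0.32). The cause was not tested. Scaling shifted the median of all genes by under 0.01. At this depth, members with few counts, such as MMP1, MMP9 and TIMP3, could not be compared.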

Other observations

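Metalloproteinases related to these families through their zinc-binding site were measured beside them. Of 10 such genes, 5 were tested and none was called in edgeR's test, where 1.58% of all tested genes were called. None of the 5 had an unadjusted p under 0.05. PAPPA, a secreted protease that cleaves IGF-binding proteins, and BMP1, the procollagen C-proteinase, were well expressed. PAPPA had 2724, 2563 and 2861 counts in control and 2793, 2891 and 2375 counts in IL17D-overexpressing replicates. BMP1 had 1153, 1088 and 1139 counts in control and 1172, 1094 and 910 counts in IL17D-overexpressing replicates. The log2 fold changes were -0.029 for PAPPA and -0.10 for BMP1, and the groups overlapped for both.

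Among the epithelial markers, CDH1 and CLDN4, a claudin of tight junctions, lay lower in the 3 IL17D-overexpressing libraries than in the 3 control libraries. CLDN4 was at 5.35, 5.18 and 4.48 CPM in control and 3.95, 3.04 and 2.52 CPM in IL17D-overexpressing replicates (log2 fold change -0.65, standard error 0.20, adjusted p = 0.113 from edgeR's test). KRT7 (log2 fold change -0.068, adjusted p = 0.28) and KRT8 (log2 fold change -0.056, adjusted p = 0.265) did not overlap either. EPCAM and KRT18 overlapped. Thus 4 of the 6 tested epithelial markers were lower without overlap, against 8.31% of all tested genes. All 6 had log2 fold changes below 0. Their part in the changes of the proteases was not tested.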
